A study of Mus musculus with 4 samples.

Results

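The mouse mitochondrial genome encodes 37 genes, and all 37 of them (22 transfer RNAs, 2 ribosomal RNAs and 13 messenger RNAs) were found among the 141239 features of the count table by taking the transcripts whose GENCODE M21 gene symbol starts with mt-. They were measured as small RNA fragments in RAW264.7 cells, a mouse macrophage-like cell line, and in the extracellular vesicles that these cells shed into their medium. Each compartment had 1 library of cells with the hairpin shNS and 1 library with the hairpin shDis3l2, so that the 4 groups held 1 library each. All 4 came from cells given doxycycline at 1 ug/mL for 3 days and then for the 24 h of collection, in medium whose serum had been cleared of vesicles. The vesicles were banded on a sucrose gradient and treated with micrococcal nuclease before RNA extraction, which the whole cells were not, so that vesicle RNA and cell RNA also differ in how they were handled. The labels do not say whether either hairpin line is a clone or a pool. The label Dis3l2 refers to the gene of a 3′ to 5′ exonuclease of the cytoplasm that degrades uridylated RNA.

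Both strands of the mitochondrial genome are transcribed as long precursors in which tRNAs lie between most of the rRNAs and mRNAs. The tRNAs are cut out by the mitochondrial RNase P and RNase Z, which at the same time frees the rRNA or mRNA on either side. The 2 rRNAs form the mitochondrial ribosome, and the 13 mRNAs encode subunits of respiratory complexes I, III, IV and V, whose other subunits are encoded in the nucleus. Reads of at most 50 nt can cover most of a mitochondrial tRNA but only pieces of an rRNA or mRNA, and levels of tRNAs and of longer RNAs are therefore not comparable as numbers of molecules.

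Values are counts scaled to a library total of 1000000 counts (CPM), and pairs of values are given in the order shNS, shDis3l2. The libraries held 17612856 to 19741041 counts, so that 3 counts, the limit that a count of 0 allows, correspond to 0.152 to 0.170 CPM. In cells 68.3% and 61.2% of all counts fell on miRNA hairpins, against 19.1% and 10.5% in the vesicle libraries, and every share of another class moves with that. Counts on the targeted gene went against its label in cells. Dis3l2 stood at 2.08 CPM in the library labelled shNS and at 718 CPM in the library labelled shDis3l2, and at 94.2 and 108 CPM in the vesicles. Whether these counts are reads of the hairpin shDis3l2 itself, or the labels of the cell libraries were exchanged, was not tested. An exchange would turn every ratio by label in cells. It would also pair each vesicle library with the other cell library, and so change the vesicle to cell ratios given by label and all values that combine label and compartment. Fragments of 12 macrophage genes summed to 43.8 to 44.1 CPM in cells and 346 to 429.6 CPM in vesicles, with Itgam at 0 in the cells labelled shNS. Fibroblast, lymphoid, erythroid and epithelial markers each summed to at most 9.82 CPM, and Hba-a1 and Hbb-bt were at 0 in all 4 libraries. With 1 library per group, no single comparison has a replicate check. Ratios carry a 95% interval that covers counting error only, and a gene is called apart where its 2 libraries hold at least 100 counts together, the difference reaches 2-fold and 1 lies outside the interval.

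The tRNAs on which the results turn are shown first, 5′ to 3′, with the anticodon in capitals. The most abundant were mt-Tm (chrM:3845-3913, plus strand), the methionine tRNA, and mt-Ts2 (chrM:11613-11671, plus), a serine tRNA that is known for lacking the D arm and is the shortest of the set.
mt-Tm: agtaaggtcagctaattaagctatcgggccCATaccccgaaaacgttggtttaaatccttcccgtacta
mt-Ts2: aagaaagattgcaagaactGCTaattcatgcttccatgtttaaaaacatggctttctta
mt-Tq (chrM:3772-3842, minus), mt-Tt (chrM:15289-15355, plus) and mt-Tf (chrM:1-68, plus), for glutamine, threonine and phenylalanine, were those that stood apart by label in cells.
mt-Tq: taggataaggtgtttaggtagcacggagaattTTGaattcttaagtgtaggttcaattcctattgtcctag
mt-Tt: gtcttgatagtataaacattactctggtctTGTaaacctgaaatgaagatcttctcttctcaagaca
mt-Tf: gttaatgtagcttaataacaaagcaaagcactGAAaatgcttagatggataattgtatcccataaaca
mt-Tv (chrM:1025-1093, plus), mt-Tg (chrM:9391-9458, plus) and mt-Tk (chrM:7700-7764, plus), for valine, glycine and lysine, kept the highest vesicle to cell ratios under both labels.
mt-Tv: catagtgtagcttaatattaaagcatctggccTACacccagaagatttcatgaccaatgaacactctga
mt-Tg: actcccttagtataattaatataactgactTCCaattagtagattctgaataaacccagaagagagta
mt-Tk: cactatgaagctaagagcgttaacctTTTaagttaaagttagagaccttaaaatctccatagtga
Sequences are those of the GENCODE M21 transcripts (GRCm38), without the CCA that is added after transcription. The anticodon was placed as the triplet of the vertebrate mitochondrial code for the amino acid in a 7-base loop closed by a stem of 5 pairs, of which at least 4 had to form. This placed it in 21 of 22 tRNAs, and mt-Tw was not placed. The tRNAs are 59 to 75 nt long with a GC content of 17.1 to 44.9%.

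Mitochondrial transcripts made up 2.43% (2.42 to 2.44%) of all counts in the cells labelled shNS and 3.15% (3.15 to 3.16%) in the cells labelled shDis3l2. In vesicles their share was 0.0407% (0.0398 to 0.0416%) and 0.0425% (0.0415 to 0.0435%), with exact (Clopper-Pearson) intervals. All 37 genes had at least 100 counts in each cell library, whereas 11 and 12 genes reached 100 counts in the vesicle libraries. The mitochondrial total came to 479455 and 580790 counts in cells and 7400 and 7485 in vesicles. Values for a single low gene in vesicles therefore rest on few reads, and fewer vesicles that carry a fragment cannot be told apart from less of it per vesicle.

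**Figure D1:**
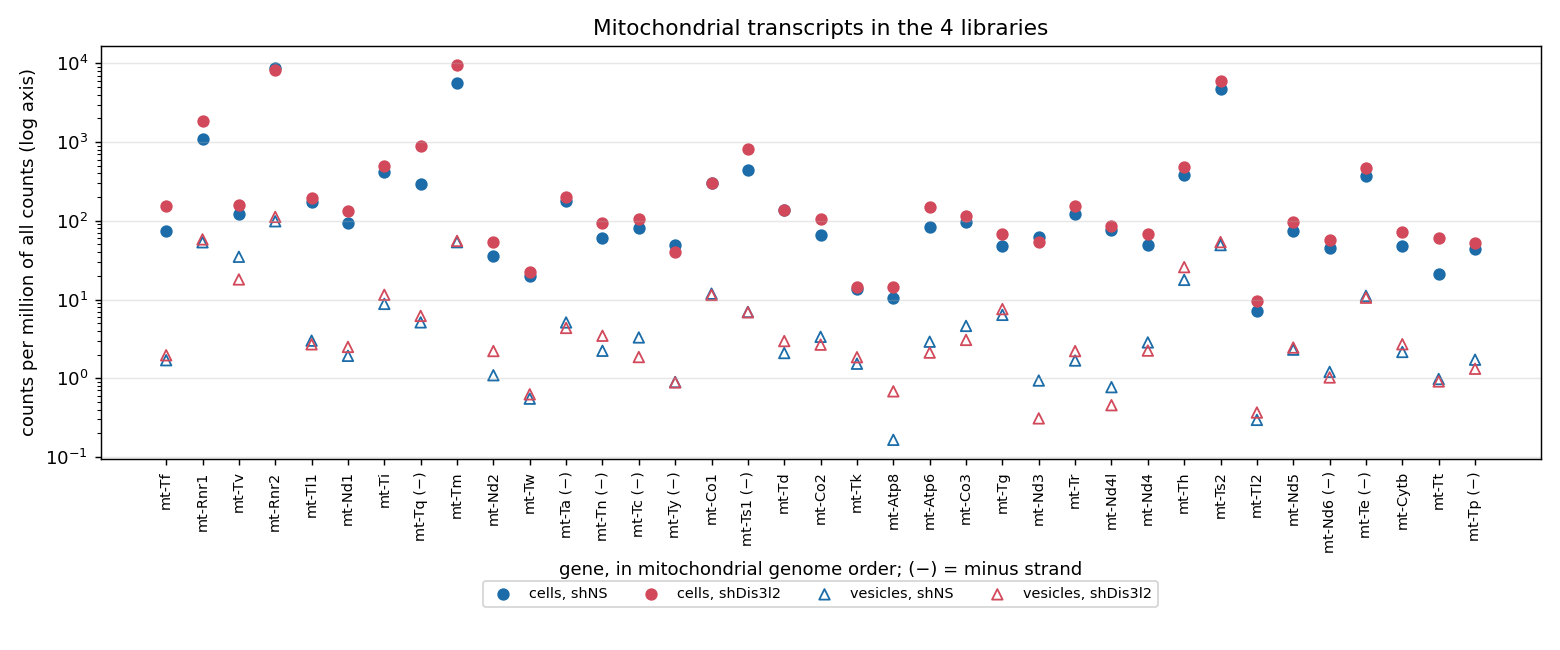
Level of each of the 37 mitochondrial transcripts in the 4 libraries, in CPM on a log axis, with genes in genome order and minus-strand genes marked; each point is 1 library. The cell libraries lie above the vesicle libraries at every gene, and mt-Rnr2, mt-Tm and mt-Ts2 are the highest in both cell libraries.

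A handful of RNAs held most of the mitochondrial counts. mt-Rnr2, the 16S rRNA of the large mitochondrial ribosomal subunit, stood at 8681 and 8248 CPM in the cells and 98.6 and 112 CPM in the vesicles. mt-Tm stood at 5605 and 9622 CPM in the cells and 53.5 and 55.5 CPM in the vesicles, and mt-Ts2 at 4794 and 5889 CPM in the cells and 49.1 and 53.7 CPM in the vesicles. Together these 3 RNAs made up 78.6% and 75.3% of mitochondrial counts in cells, and 49.5% and 52.1% in vesicles. mt-Rnr1, the 12S rRNA of the small subunit, was next in cells, with 1104 and 1832 CPM in the cells and 53.3 and 58.0 CPM in the vesicles. The order of the 37 genes was close between libraries of 1 compartment (Spearman's rho of counts 0.96 for cells and 0.94 for vesicles) and less so between compartments (0.81 to 0.86), as a description over genes that share each library.

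Behind those leading RNAs came tRNAs from both strands. mt-Ts1, the other serine tRNA, transcribed from the opposite strand to mt-Ts2, stood at 444 and 815 CPM in the cells and 6.95 and 6.88 CPM in the vesicles. mt-Ti, the isoleucine tRNA, stood at 419 and 502 CPM in the cells and 8.79 and 11.5 CPM in the vesicles. mt-Th, the histidine tRNA, stood at 386 and 477 CPM in the cells and 17.8 and 25.8 CPM in the vesicles, and mt-Te, the glutamate tRNA, at 372 and 470.2 CPM in the cells and 11.1 and 10.5 CPM in the vesicles. The lowest tRNA in every library was mt-Tl2, a leucine tRNA, with 7.09 and 9.70 CPM in the cells and 0.295 and 0.367 CPM in the vesicles, although it directly follows mt-Ts2 on the same strand. Neighbouring genes of 1 precursor thus differed widely in count: mt-Th, mt-Ts2 and mt-Tl2 lie side by side, and in the cells labelled shNS they held 7611, 94646 and 139.9 counts.

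**Figure D2:**
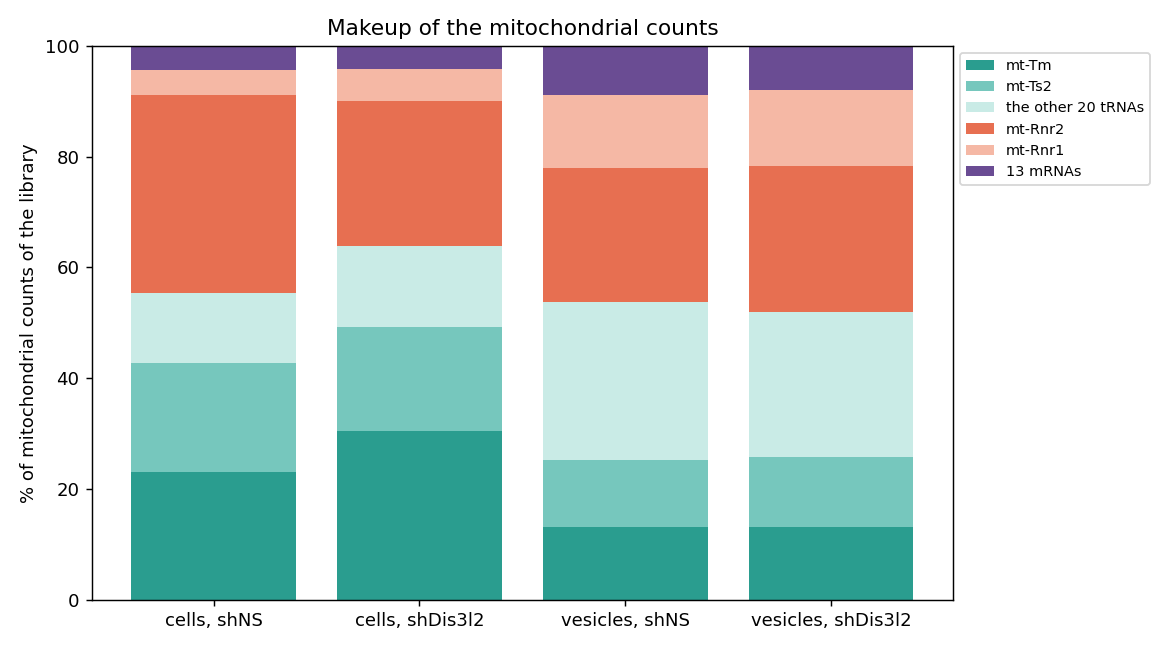
Make-up of the mitochondrial counts of each library, in percent of that library's mitochondrial counts, by named RNA or class; each bar is 1 library and sums to 100%. mt-Rnr2 takes 35.7% and 26.2% in cells and 24.2% and 26.4% in vesicles, and mt-Rnr1 4.54% and 5.81% in cells and 13.1% and 13.7% in vesicles.

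Every mitochondrial transcript was lower in vesicles than in cells. The sum of all 37 was 59.7-fold lower (58.3 to 61.1) in the vesicles labelled shNS and 74.2-fold lower (72.5 to 75.9) in those labelled shDis3l2. The sizes depend on the scale and on 3 RNAs: with the other scales the sum was 118-fold to 152-fold and 170.3-fold to 176-fold lower, and without mt-Rnr2, mt-Tm and mt-Ts2 it was 25.3-fold and 38.2-fold lower. All 37 genes were apart and lower in vesicles under both labels, where 13.5% and 13% of the 6858 and 7388 genes with enough counts were called lower and 74.6% and 77% higher. The median log2 ratio of the 37 was -5.06 and -5.47, against 2.19 and 2.43 over all genes with enough counts. The median over all genes depends on the scale and on this minimum, which many genes can meet through the vesicle library.

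The 1 test that the design allows takes both labels together. In an additive fit of compartment and label over the 4 libraries (edgeR's quasi-likelihood test, Benjamini-Hochberg adjustment over 16640 genes, 1 residual degree of freedom), 37 of 37 were lower in vesicles, with adjusted p from 0.000661 to 0.00321. In the same fit 20.2% of all genes were called lower and 16% higher. With its TMM scale and its own filter on low counts, the median log2 ratio was -6.87 for the 37 and 0.047 over the 16640 genes. This fit takes any difference between the labels' vesicle to cell ratios as its error, and the libraries are not replicate cultures.

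The tRNAs spanned the widest range. As a class they stood at 13457 and 20149.6 CPM in the cells and 219 and 221 CPM in the vesicles, 61.5-fold and 91.2-fold lower in vesicles. Without mt-Tm and mt-Ts2 the other 20 were 26.3-fold and 41.5-fold lower, close to the mRNAs at 28.9-fold and 38.6-fold. mt-Tm fell the furthest of the tRNAs, being 105-fold (98.4 to 112) and 173-fold (163 to 185) lower in vesicles (adjusted p = 0.000661 in the edgeR fit). mt-Ts2 was 97.5-fold and 109.7-fold lower, and mt-Tq 56.4-fold and 145-fold lower. At the other end was mt-Tv, with 123 and 161 CPM in the cells and 34.9 and 18.0 CPM in the vesicles, 3.53-fold (3.24 to 3.86) and 8.92-fold (7.95 to 10.1) lower. Its share of the mitochondrial counts came to 0.508% and 0.509% for cells, against 8.58% and 4.23% for vesicles. mt-Tg stood at 47.9 and 67.9 CPM in the cells and 6.38 and 7.55 CPM in the vesicles, 7.49-fold and 8.96-fold lower. mt-Tk stood at 13.5 and 14.4 CPM in the cells and 1.53 and 1.85 CPM in the vesicles, 8.71-fold and 7.71-fold lower, from 27.8 and 32.6 counts in vesicles. These 3 lie on the plus strand and are not neighbours of each other; mt-Tv sits between the 2 rRNA genes. The interval of mt-Tv did not overlap those of mt-Tg and mt-Tk in the libraries labelled shNS and did in those labelled shDis3l2. mt-Tt, the threonine tRNA, was lower by 21.2-fold (13.4 to 36.6) and 65.4-fold (41.4 to 119). The remaining tRNAs without a value so far lay between: mt-Tr, for arginine, stood at 121 and 154 CPM in the cells and 1.68 and 2.21 CPM in the vesicles. mt-Tl1, the other leucine tRNA, stood at 172 and 197 CPM in the cells and 3 and 2.70 CPM in the vesicles. mt-Tn stood at 60.1 and 94.7 CPM in the cells and 2.23 and 3.46 CPM in the vesicles, and mt-Tc at 80.4 and 105 CPM in the cells and 3.30 and 1.86 CPM in the vesicles. Apart from mt-Tv, mt-Tg and mt-Tk, all tRNAs were at least 18.5-fold lower under both labels, the value of mt-Th in the libraries labelled shDis3l2.

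**Figure D3:**
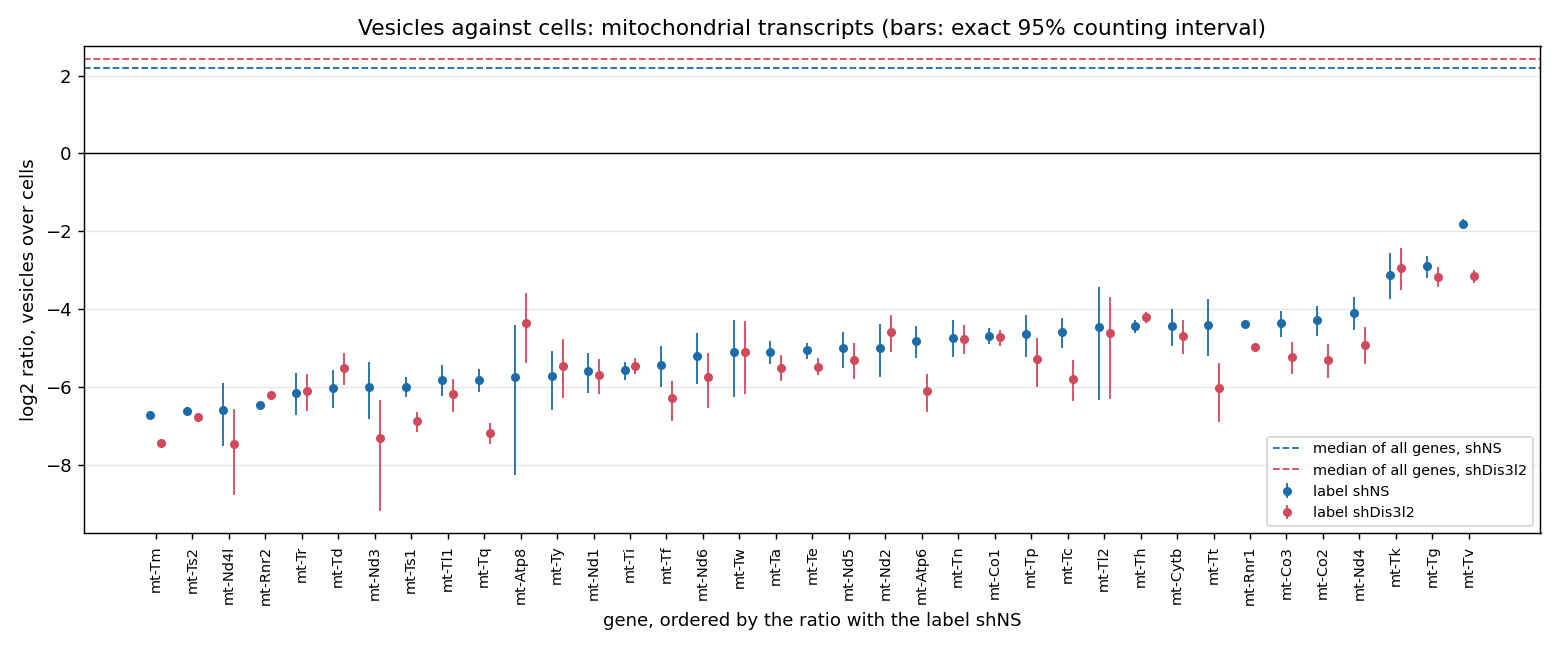
Log2 ratio of vesicles to cells for each mitochondrial transcript, ordered by the ratio under shNS, with points for the libraries labelled shNS and shDis3l2. Bars give the 95% counting interval and dashed lines the median of all genes with enough counts. All points lie below 0, from -7.46 (mt-Nd4l, shDis3l2) to -1.82 (mt-Tv, shNS), with mt-Tv, mt-Tg and mt-Tk nearest to 0.

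Both rRNAs were lower in vesicles, to unequal extents. mt-Rnr2 was 88.0-fold (84.0 to 92.3) and 73.6-fold (70.4 to 77.0) lower, and mt-Rnr1 20.7-fold (19.4 to 22.1) and 31.5-fold (29.7 to 33.6) lower. The count of mt-Rnr2 per count of mt-Rnr1 was 7.87 and 4.5 for the cell libraries and 1.85 and 1.93 for the vesicle libraries. This ratio does not depend on the scale of the library. Per 100 nt of transcript, the levels of mt-Rnr2 and mt-Rnr1 in vesicles were within reach of each other, at 6.23 against 5.58 CPM per 100 nt in those labelled shNS and 7.08 against 6.08 in those labelled shDis3l2, whereas in cells they were 549 against 116 and 521 against 192.

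The 13 mRNAs were 28.9-fold and 38.6-fold lower in vesicles as a class, with 1046 and 1306 CPM in the cells and 36.2 and 33.8 CPM in the vesicles. Grouped by the complex they encode, complex I subunits (mt-Nd1 to mt-Nd6 and mt-Nd4l) were 39.4-fold and 48.7-fold lower, the ATP synthase subunits mt-Atp6 and mt-Atp8 30.0-fold and 57.4-fold, the cytochrome c oxidase subunits mt-Co1 to mt-Co3 23.5-fold and 30.6-fold, and mt-Cytb, the complex III subunit, 21.6-fold and 26.0-fold. mt-Co1 was the most abundant mRNA, with 306 and 303 CPM in the cells and 11.9 and 11.4 CPM in the vesicles. mt-Co3 stood at 95.9 and 116 CPM in the cells and 4.62 and 3.07 CPM in the vesicles, and mt-Nd1 at 94.5 and 132 CPM in the cells and 1.92 and 2.50 CPM in the vesicles. mt-Atp6 stood at 82.8 and 148 CPM in the cells and 2.91 and 2.12 CPM in the vesicles, and mt-Nd5 at 75.0 and 97.5 CPM in the cells and 2.31 and 2.45 CPM in the vesicles. For each of these 5 mRNAs both cell libraries lay above both vesicle libraries.

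mt-Nd4l and mt-Nd3, the shortest mRNAs of complex I, had the lowest vesicle to cell ratios of the mRNAs. mt-Nd4l stood at 76.8 and 85.1 CPM in the cells and 0.770 and 0.454 CPM in the vesicles, 96.4-fold (59.3 to 183) and 176-fold (94.8 to 435) lower. mt-Nd3 stood at 61.5 and 53.4 CPM in the cells and 0.935 and 0.309 CPM in the vesicles, 63.9-fold and 158-fold lower, from 17 and 5.44 counts in vesicles. With the counts of nuclear copies added it was 79.0-fold (50.6 to 139.9) and 70.9-fold (46.4 to 121) lower. mt-Atp8, the shortest mRNA of all, held 3 and 12 counts in vesicles against 205 and 267 in cells, a ratio of 54.0-fold lower with an interval of 21.2 to 308 under shNS. Under shDis3l2 it was 20.4-fold lower (12 to 41.7), the smallest reduction of the 13 mRNAs there. mt-Nd4 had the least reduced level among the mRNAs under shNS, with 48.9 and 69.0 CPM in the cells and 2.85 and 2.24 CPM in the vesicles, 17-fold (12.9 to 23.1) and 30.4-fold (22.2 to 42.7) lower. mt-Nd2 stood at 35.5 and 54.2 CPM in the cells and 1.09 and 2.21 CPM in the vesicles, and mt-Cytb at 47.2 and 71.0 CPM in the cells and 2.15 and 2.70 CPM in the vesicles. Over the 13 mRNAs the log2 ratio of vesicles to cells went with transcript length at a Spearman's rho of 0.59 and 0.41, a description over genes of the same libraries. Over the 22 tRNAs the rho with length was -0.22 and -0.16, and over all 37 genes 0.034 and 0.049.

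**Figure D4:**
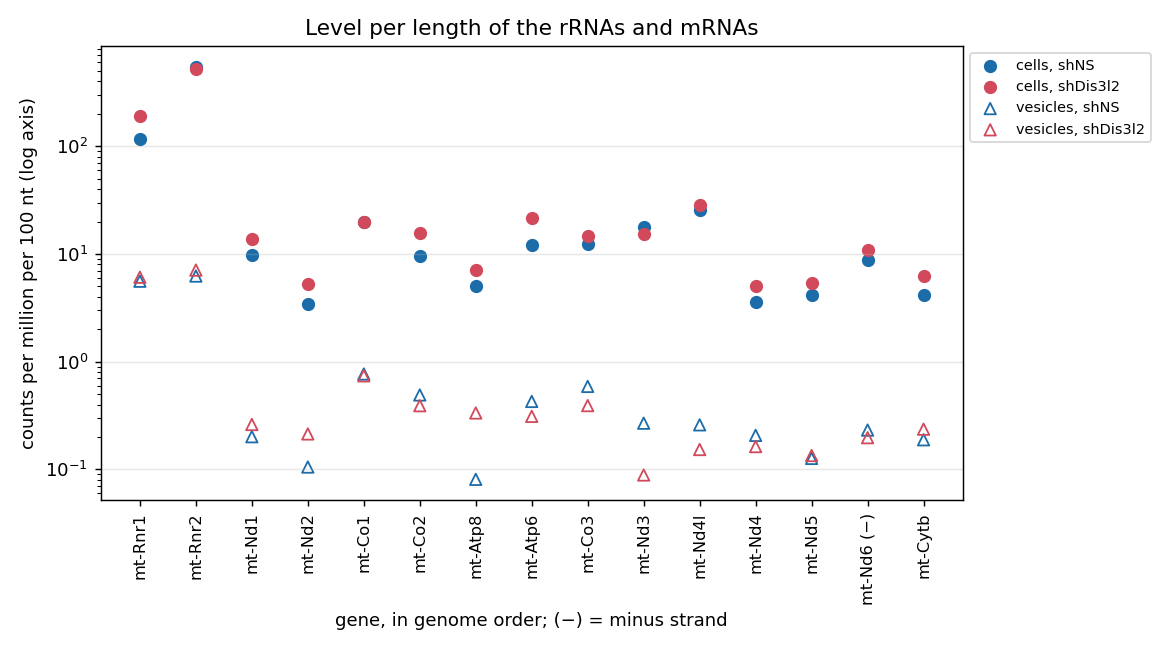
Level per length of the 2 rRNAs and 13 mRNAs in genome order, in CPM per 100 nt of transcript on a log axis; each point is 1 library, filled for cells and open for vesicles. mt-Rnr2 and mt-Rnr1 lie above the mRNAs in all 4 libraries, and among mRNAs mt-Nd4l is the highest in cells (25.9 and 28.6) and mt-Co1 in vesicles (0.768 and 0.739).

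Among other RNA classes of the same libraries, some were higher and some lower in vesicles. Cytoplasmic tRNA was 9.54-fold and 6.84-fold higher in vesicles, so that mitochondrial tRNA per 100 counts of cytoplasmic tRNA went from 33.3 and 38.9 in cells to 0.0568 and 0.0624 in vesicles. Small nucleolar RNA, which resides in the nucleus, was 20.0-fold and 40.9-fold lower in vesicles, of a size like that of the mitochondrial mRNAs, and miRNA hairpins 3.57-fold and 5.81-fold lower. Mitochondrial mRNA was 3.12% and 3.03% of all counts on protein-coding genes in cells and 0.0281% and 0.0200% in vesicles.

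Fragments of nuclear genes that serve the mitochondrion were mostly higher in vesicles where they had enough counts, as were most genes of the table with enough counts. Of 18 nuclear mRNAs for subunits of the respiratory complexes, 10 had enough counts under shNS and 12 under shDis3l2. All of these were apart and higher in vesicles (median log2 ratio 3.09 and 2.46). The count minimum was met mostly through the vesicle library: 3 of the 18 met it over the 2 cell libraries and 16 over the 2 vesicle libraries. A gene this low in cells reaches the minimum only if it is high in vesicles, so these calls were largely set by the minimum. Atp5b, the beta subunit of ATP synthase, stood at 2.37 and 4.38 CPM in the cells and 28.3 and 25.2 CPM in the vesicles, and Cox4i1, a subunit of cytochrome c oxidase, at 0.783 and 1.15 CPM in the cells and 11.4 and 8.24 CPM in the vesicles. Of 20 genes of mitochondrial transcription, RNA processing and decay, 7 of 8 and 9 of 11 with enough counts were higher and 0 lower. Elac2, the RNase Z that cuts tRNA 3′ ends, stood at 2.17 and 9.03 CPM in the cells and 33.4 and 53.6 CPM in the vesicles, and Trmt10c, a subunit of RNase P, at 1.16 and 1.33 CPM in the cells and 3.40 and 5.08 CPM in the vesicles. Of 24 genes of mitochondrial tRNA charging and modification, 7 of 9 and 10 of 12 were higher, and Mars2, the methionyl-tRNA synthetase, was the 1 lower gene, under shNS, with 11.4 and 7.56 CPM in the cells and 4.35 and 8.15 CPM in the vesicles. For comparison, 74.6% and 77% of all genes with enough counts were called higher, and the shares of the last 2 lists were near that. These lists too met the minimum mostly in vesicles. Over the cell libraries 3 of 20 and 2 of 24 genes met it, and over the vesicle libraries 13 and 14.

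Between the 2 cell libraries, mitochondrial transcripts were moderately higher in the one labelled shDis3l2. The sum was 1.30-fold higher (1.29 to 1.30), with tRNAs at 1.50-fold, mRNAs at 1.25-fold and rRNAs at 1.03-fold. Each of these sums was led by its most abundant RNAs, and the medians over genes had another order, 1.39-fold for mRNAs, 1.27-fold for tRNAs and 1.26-fold for rRNAs. Of the 37 genes 32 had a ratio above 1, with a median log2 ratio of 0.38 against 0.11 over all genes with enough counts. When the total without miRNA hairpins was the scale, the sum was 1.06-fold higher and 24 genes were above 1. By the label term of the additive edgeR fit 0 of 37 were called, none had an unadjusted p under 0.05, and 0% of all 16640 genes were called in either direction; DESeq2 with the same design called 0 of the 37 and 12 of 5157 genes.

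By label in cells 3 of 37 genes stood apart as higher and 0 as lower, where 13.8% of 3391 genes were called higher and 4.98% lower. Calls were thus no more frequent than among all genes. The 3 called were tRNAs, as are 22 of the 37. mt-Tq had 5740.5 counts in the cells labelled shNS and 16614 in those labelled shDis3l2, 291 and 902 CPM, a 3.10-fold difference (3.01 to 3.20); in vesicles it stood at 5.12 and 6.19 CPM. mt-Tt stood at 21.3 and 61.3 CPM, 2.88-fold (2.58 to 3.23), with 0.977 and 0.909 CPM in vesicles. mt-Tf stood at 74.3 and 156 CPM, 2.10-fold (1.97 to 2.23), with 1.69 and 1.96 CPM in vesicles. With the total without miRNA hairpins as the scale, mt-Tf was 1.71-fold higher (1.61 to 1.83), which ends its call and leaves mt-Tq and mt-Tt, 2 of 37. Short of 2-fold were mt-Ts1 at 1.84-fold, mt-Atp6 at 1.78-fold and mt-Tm at 1.72-fold. mt-Ty, the tyrosine tRNA, had the lowest ratio, 0.833 (0.756 to 0.918), with 48.6 and 40.5 CPM in the cells and 0.895 and 0.885 CPM in the vesicles. The next lowest were mt-Nd3 at 0.869 (0.798 to 0.946) and mt-Rnr2 at 0.95 (0.944 to 0.957), against 1.66 (1.63 to 1.69) for mt-Rnr1. With the counts of nuclear copies added, mt-Nd3 turned to 1.03 (0.961 to 1.11).

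In vesicles the libraries differed little by label. The mitochondrial sum was 1.04-fold higher (1.01 to 1.08) in the library labelled shDis3l2, and its direction flips under the other scales tried, to log2 ratios of -0.20 to -0.083. Of the 17 genes with enough counts 0 stood apart, where 10.5% of 8481 genes were called higher and 2.55% lower. The lowest ratio among the 17 was that of mt-Tv, with 635 and 317 counts, 0.516-fold (0.449 to 0.591), just inside the 2-fold limit; under TMM, DESeq2 and miRNA-free scaling it falls past it. mt-Co3 followed at 0.666-fold (0.463 to 0.946), and mt-Co2, with 65.9 and 107 CPM in the cells and 3.36 and 2.67 CPM in the vesicles, at 0.797-fold (0.532 to 1.18). The highest ratios were those of mt-Tn, the asparagine tRNA (1.55-fold, 1.02 to 2.34), mt-Th (1.45-fold, 1.26 to 1.68) and mt-Ti (1.30-fold, 1.05 to 1.61). Over the 22 tRNAs the ratio went with GC content at a Spearman's rho of -0.66, and at -0.55 over the 12 with enough counts, as a description. It is the largest of many such values, as length, GC content and position were each set against all 4 comparisons. For the same 22 tRNAs, GC content gave 0.099 by label in cells. For vesicles against cells it gave -0.0028 under shNS and -0.18 under shDis3l2.

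**Figure D5:**
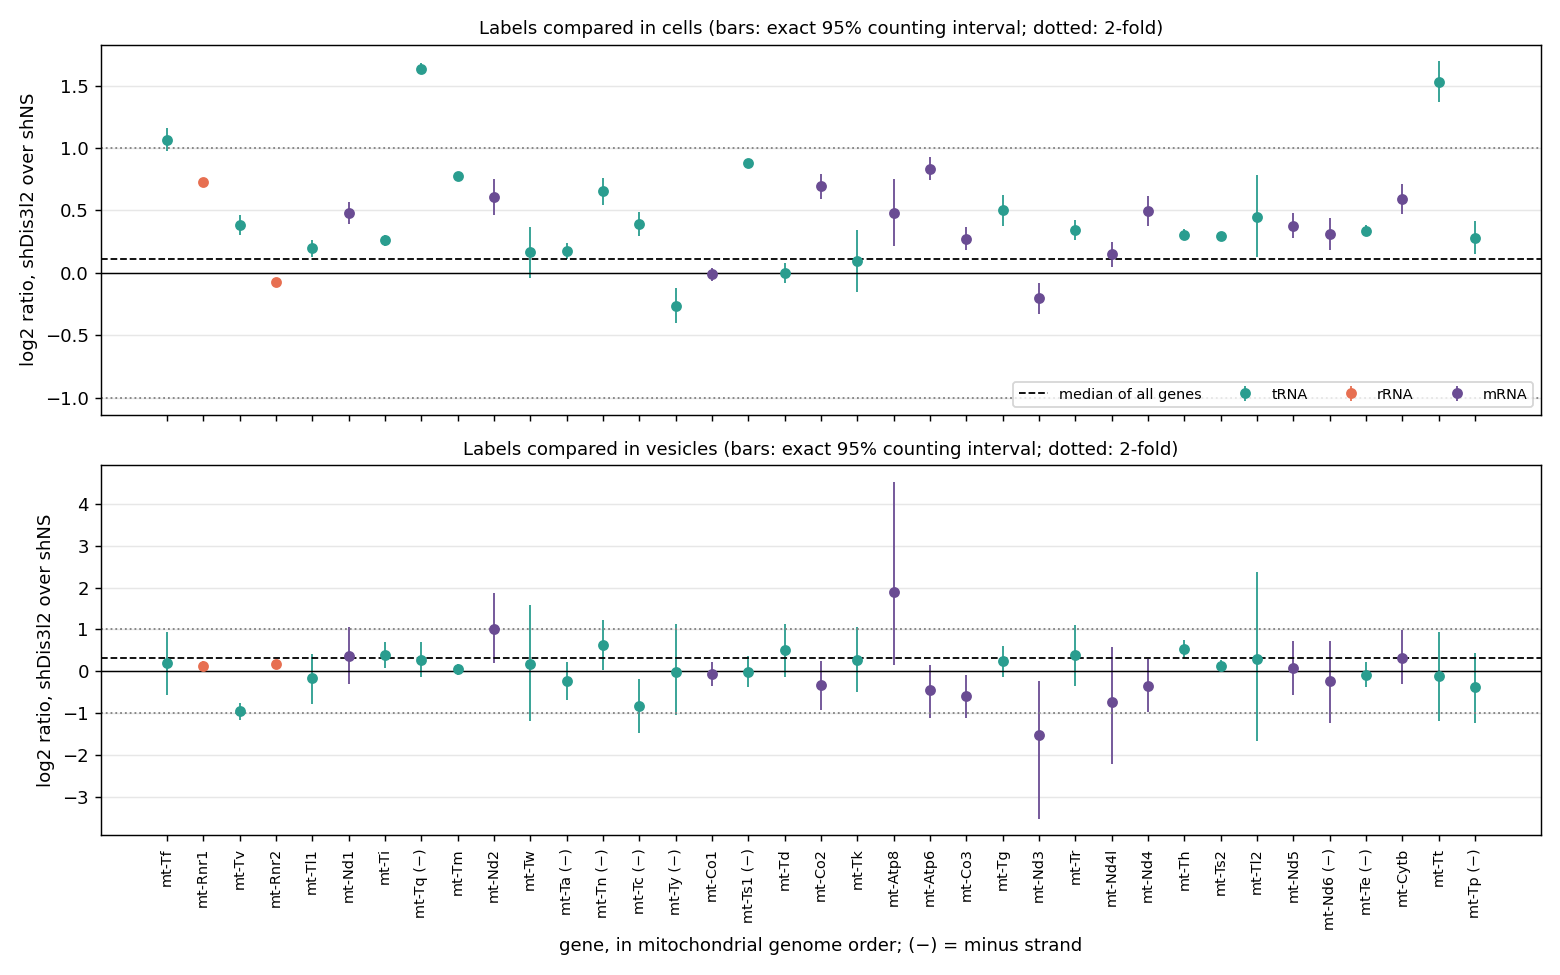
Log2 ratio of the library labelled shDis3l2 to the library labelled shNS for each mitochondrial transcript, in cells (upper panel) and in vesicles (lower panel), with 95% counting intervals as bars. In cells mt-Tq, mt-Tt and mt-Tf lie above a log2 ratio of 1, and in vesicles the bars are wide, and 20 of 37 genes hold fewer than 100 counts over both libraries.

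Position relative to the strands gave a further view. The plus strand carries 14 tRNAs, both rRNAs and 12 mRNAs, and the minus strand 8 tRNAs and mt-Nd6. Plus-strand genes summed to 22726 and 28799.9 CPM in the cells and 369 and 388 CPM in the vesicles, and minus-strand genes to 1561 and 2736 CPM in the cells and 37.7 and 36.5 CPM in the vesicles. By label in cells, minus-strand tRNAs were 1.77-fold higher and plus-strand tRNAs 1.46-fold as sums, while the medians over genes were 1.29-fold and 1.25-fold. The minus-strand sum was led by mt-Tq, with 5740.5 and 16614 counts, and mt-Ts1, with 8763 and 15013. mt-Nd6, the only mRNA of that strand, stood at 45.5 and 56.4 CPM in the cells and 1.20 and 1.02 CPM in the vesicles and was 1.24-fold higher by label in cells.

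At the places where coding switches strand, neighbours were alike in some pairs and not in others. mt-Ti, mt-Tq and mt-Tm follow each other with alternating strands, and their label ratios in cells were 1.20, 3.10 and 1.72. mt-Tt and mt-Tp, the threonine and proline tRNAs, lie side by side on opposite strands with ratios of 2.88 and 1.22, and mt-Tp stood at 43.2 and 52.5 CPM in the cells and 1.72 and 1.32 CPM in the vesicles. mt-Tw and mt-Ta, for tryptophan and alanine, stood at 19.8 and 176 CPM in the cells labelled shNS and 22.3 and 199 CPM in those labelled shDis3l2, and in vesicles at 0.550 and 5.11 CPM under shNS and 0.625 and 4.35 CPM under shDis3l2. Their label ratios in cells were close, 1.12 and 1.13, as were those of mt-Nd5 and mt-Nd6, 1.30 and 1.24. mt-Td, the aspartate tRNA beside mt-Ts1, stood at 137 and 137 CPM in the cells and 2.09 and 2.96 CPM in the vesicles, a label ratio in cells of 0.998 against 1.84 for mt-Ts1. mt-Ti and mt-Tq overlap by 3 nt, mt-Co1 and mt-Ts1 by 3 nt and mt-Nd5 and mt-Nd6 by 14 nt, in each case on opposite strands, and mt-Atp8 and mt-Atp6 by 43 nt on the same strand. Whether counting used the strand of the read is not stated in the sources, so reads in these stretches cannot be told apart.

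Some reads of these genes could also come from, or be assigned to, copies of mitochondrial sequence in the nuclear genome. Annotated nuclear transcripts matching over 50% of their length numbered 12, for 10 mitochondrial genes, and 7 of them had no counts; together they held 288, 469.9, 1.13 and 13.6 counts in the cells labelled shNS and shDis3l2 and the vesicles labelled shNS and shDis3l2. Nearly all were on Gm28438 on chromosome 1, which shares 342 of 345 nt with mt-Nd3 and held 286, 461, 0 and 13.6 counts in that order, so that values of mt-Nd3 are uncertain by that much. A retained intron transcript of Cep295 shares 34 nt with mt-Ty and, in the opposite orientation, 26 nt with mt-Tl1. It held 123, 209.9, 103 and 151 counts. Gm43841, which shares 28 nt with mt-Cytb and 25 nt with mt-Tt, held 113, 82.7, 0.999 and 0.959. Neither is among the 12 copies. Gm12155 shares 60 nt with mt-Co2 and held 70.7, 92.9, 4.01 and 4.99. At a run of 18 nt, a processed transcript of Abi3 matched mt-Ts2 at bases 40 to 57, marked in capitals.
mt-Ts2: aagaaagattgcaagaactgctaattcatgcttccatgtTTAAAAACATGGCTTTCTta
That transcript held 16.5, 23.3, 8340.1 and 7797 counts, and whether any of its counts are mitochondrial was not tested. mt-Tv, mt-Tg, mt-Tk and mt-Th shared no run of 18 nt in the same orientation with any of the nuclear transcripts searched, those with at least 100 counts in all. Cytoplasmic tRNA sequences were not searched.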

How the data were processed

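Per the labels' protocols, small RNA libraries (QIAseq miRNA kit) were sequenced to 50 nt. Per the submitters' processing notes, cutadapt, Salmon and Novoalign were used with the builds GRCm38 and mm10, and versions, strand setting and any collapsing of reads to molecules are not given in the sources used here. Values deposited by the authors are estimated counts of each transcript, and 6.56% of the nonzero ones were whole (tolerance 0.001); they were rounded for intervals and fits. Transcripts were summed to genes with GENCODE M21, and no further sample columns were present (0).

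CPM used the sum of all features, scaled to 1000000 counts, and log2 ratios a pseudocount of 0.5 counts. Intervals are exact conditional binomial ones at 95% (scipy 1.17.1) and cover counting error only; whether the counts are of reads, which are not independent molecules, or of molecules is not stated. The additive fit used edgeR 4.0.16 with TMM factors (R 4.3.3) and adjusted p over all genes at a threshold of 0.05; DESeq2 1.42.0 was an alternative. On simulated data with 200 genes changed 8-fold among 16640, the compartment term recovered 198 with edgeR and 169 with DESeq2. The simulated counts had the same dispersion for all genes and no difference by label, unlike the real libraries. They therefore cannot show how well the fit recovers differences in these data. Alternatives were other scales, count minimums of 10 and 1000, a pseudocount of 5 and nuclear copies added.

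The members and lists were chosen with earlier results of these data known. Genes named in full were the 5 most abundant of each class, the 3 most extreme per comparison and direction with at least 100 counts, genes at strand switches, and others of the 37 where a comparison needed them. Lists with no test are described by counts beside all genes. Nuclear transcripts are named where they share at least 24 nt and hold at least 100 counts; the Abi3 match at 18 nt was named after its values were seen.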

Additional observations from a re-analysis of the deposited data

Results flagged for a closer look

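For 4 genes the label ratio had an interval on opposite sides of 1 in cells and in vesicles, with 1 library behind each value; the difference between the ratios was not tested. mt-Tv had a log2 label ratio of 0.38 in cells and -0.96 in vesicles, a difference (vesicles minus cells) of -1.34. mt-Tc, the cysteine tRNA, had 0.39 and -0.82, a difference of -1.21, from 60.0 and 32.7 counts in vesicles. mt-Co3 had 0.27 and -0.59, a difference of -0.86; with the total without miRNA hairpins as the scale its ratio in cells was -0.016, no longer on the opposite side. mt-Rnr2 had -0.074 and 0.18, a difference of 0.26, and its ratio in vesicles turned to -0.076 with TMM and -0.018 with DESeq2 scaling. mt-Tv and mt-Tc kept intervals on opposite sides under all 3 other scales. Depth, the share of miRNA hairpins and the vesicle preparation differ between the libraries, and their part in these values was not tested.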

How the results depend on the processing

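The log2 ratio of the mitochondrial sum moved with the scale and with the RNAs summed; leaving out the 3 most abundant RNAs was chosen after seeing the data. By label in cells (0.38) it was 0.33 with TMM factors, 0.31 with DESeq2 size factors, 0.086 with the total without miRNA hairpins and 0.58 without mt-Rnr2, mt-Tm and mt-Ts2. By label in vesicles (0.063) it was -0.20 with TMM factors, -0.14 with DESeq2 size factors, -0.083 with the total without miRNA hairpins and -0.013 without mt-Rnr2, mt-Tm and mt-Ts2. Vesicles against cells under shNS (-5.90) gave -6.89 with TMM factors, -7.01 with DESeq2 size factors, -7.25 with the total without miRNA hairpins and -4.66 without mt-Rnr2, mt-Tm and mt-Ts2. Vesicles against cells under shDis3l2 (-6.21) gave -7.41 with TMM factors, -7.46 with DESeq2 size factors, -7.42 with the total without miRNA hairpins and -5.25 without mt-Rnr2, mt-Tm and mt-Ts2. By label in vesicles, 1 gene (mt-Tv) was lower past 2-fold under TMM, DESeq2 and miRNA-free scaling, and a count minimum of 10 gave 2 higher (mt-Nd2 and mt-Atp8) and 1 lower (mt-Nd3). By label in cells, 2 genes (mt-Tq and mt-Tt) were higher under miRNA-free scaling. All 37 genes stayed lower in vesicles under every scale and pseudocount tried, and in every alternative of the additive fit; with a count minimum of 1000, 27 and 30 genes were left and all were lower. Relative to library totals the scales shifted vesicle to cell ratios by -0.99 to -1.35. Among the values for all results, 21 of the main ones moved and 79 did not, and 320 of the others moved and 616 did not; no called difference changed its sign. The label ratio in vesicles did change sign, and the cause of these shifts was not tested. With 1 library per group there were no replicate pairs. The additive fit, with the hairpin label as a term, compares the compartments within each label, and no other paired analysis was possible. Depth limits the vesicle values: 26 and 25 genes had under 100 counts there.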

Other observations

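Lars2, the mitochondrial leucyl-tRNA synthetase, held 14987 and 22862 counts in cells and 24018 and 57830 in vesicles, most of the counts of its list of 24 genes, and stood apart by label in vesicles (2.49-fold higher, 2.45 to 2.52), while its cognate tRNAs mt-Tl1 and mt-Tl2 had label ratios in vesicles of 0.899 (0.585 to 1.33) and 1.22 (0.315 to 5.13). Of those 24 genes 14 had enough counts by label in vesicles and 4 were called higher, where 10.5% of 8481 genes were. In cells, Elac2 (42.9 and 166 counts) and Mrm1, a methyltransferase of the 16S rRNA (85.8 and 306 counts), stood apart by label. Both were higher in the library labelled shDis3l2. Of their list of 20 genes only 3 had enough counts in cells, and 13.8% of 3391 genes were called higher there.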
